A study of Mus musculus with 17 samples.

Results

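The comparison is between 2 stable mouse cell lines measured while their transgenes were switched off. One carries a Flag-tagged dominant-negative form of the chromatin remodeler Chd4 (dnChd4), the other a Flag-tagged dominant-negative form of the remodeler Snf2h (dnSnf2h). The arrays were chosen by their titles, which gave 2 repressed dnChd4 arrays and 2 repressed dnSnf2h arrays, 4 of the 17 arrays in all. Both lines derive from 3134 mouse mammary epithelial cells that hold a tetracycline-regulated transactivator, and both stayed in tetracycline (5 µg/ml in the stocks), the drug that silences transactivator and transgene alike, through the 48 h of the experiment in charcoal-dextran-treated serum. By the titles and the series' design text, the mutant protein was not being made in either; the source names and descriptions of these arrays write Chd4 or Snf2h in places without the dn prefix. The 4 induced arrays of the same lines, grown without tetracycline for 48 h, and the 2 repressed arrays of a dominant-negative Brg1 line (dnBrg1) were set beside them, and no array of the transactivator-only control line entered the main comparison.

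Chd4 is the ATPase of the NuRD complex, which couples nucleosome remodeling to histone deacetylation. Snf2h, encoded by Smarca5, is the ATPase of ISWI complexes, which slide and space nucleosomes, and Brg1, encoded by Smarca4, drives SWI/SNF complexes, which slide or evict them. Such lines are usually used in the induced state, and a comparison without induction asks how far the lines differ before the mutant protein is made. Stable integration of a transgene followed by selection can fix differences that the starting cells already had. The labels do not say whether each line is a single clone, nor whether the replicates came from separate cultures, so the p-values below measure only the spread between these arrays, which may be technical.

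Values are log2 signals, 1 per gene and array, and a difference is dnChd4 minus dnSnf2h on that scale. Across the 12 arrays of the dominant-negative lines, 19938 genes were tested with limma, and genes with a mean log2 signal at or below 4.76, the 30th percentile, are called dim. Of 28 epithelial markers measured, 8 were dim on each of the 4 repressed arrays, a share close to the 30% that defines the dim level. Epcam, an epithelial adhesion gene, was among them at 4.0 and 4.07 in dnChd4 cells and 4.12 and 4.10 in dnSnf2h cells, and the epithelial cadherin gene Cdh1 was a little above that level at 5.17 and 5.17 in dnChd4 cells and 5.21 and 5.05 in dnSnf2h cells. The basal keratin gene Krt14 averaged 8.80 in dnChd4 cells and 8.92 in dnSnf2h cells, and the mesenchymal filament gene Vim averaged 12.88 in dnChd4 cells and 12.83 in dnSnf2h cells. In both lines Cdh5, an endothelial cadherin gene, was well above the dim level at 8.12 and 8.08 in dnChd4 cells and 7.79 and 8.0 in dnSnf2h cells, while dnBrg1 cells had 3.86 and 4.47, and Pecam1, another endothelial marker, was dim on all 4 arrays of the pair.

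None of the genes for the remodelers themselves was called between the 2 repressed lines. Chd4 had log2 signals of 10.56 and 10.35 in dnChd4 cells, against 10.04 and 10.26 in dnSnf2h cells. Its difference of 0.30 (SE 0.11) did not pass the limma test after adjustment (adjusted p = 0.548). Both dnChd4 arrays lay above both dnSnf2h arrays, as for 16.5% of all genes. Its unadjusted limma p was under 0.05, as for 3.61% of all genes with dnChd4 higher. On the induced arrays Chd4 had 12.27 and 12.27 in dnChd4 cells and 10.02 and 10.19 in dnSnf2h cells, a difference of 2.17, so the labels of the induced pair and the array signal go the same way. Smarca5, the gene behind the other transgene, had 9.75 and 9.79 in repressed dnChd4 cells and 9.69 and 9.81 in repressed dnSnf2h cells, and with induction 9.51 and 9.65 in dnChd4 cells and 9.43 and 9.59 in dnSnf2h cells. Its probe set therefore gave no sign of the dnSnf2h transgene in either state and cannot check those labels.

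Other remodeler genes differed little. Smarca4 differed by -0.02, Chd3, the Chd4 relative that can take its place in NuRD, by -0.02, and Smarca2, the second SWI/SNF ATPase, by -0.19, with none past the threshold. Among 15 measured NuRD subunits the median difference was 0.04, among 12 genes of the ISWI list 0.02 and among 21 SWI/SNF subunits 0.004, beside -0.002 over all genes tested. These medians turned sign with 1 dnSnf2h array left out. Without replicate 2 they were 0.09, 0.06 and 0.09, and without replicate 1 they were -0.02, -0.09 and -0.09, where those of all genes were 0.02 and -0.03. The largest difference was that of Chd4 among NuRD subunits, that of Phf10 among SWI/SNF subunits (0.31) and that of Chrac1 among ISWI subunits (-0.22). The ISWI list also holds Hells, a separate SNF2-family remodeler gene, at 0.29, and no gene of the 3 lists was called.

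Across all genes the 2 repressed lines were about as much alike as replicates of 1 line. Pearson's r across 19938 genes was 0.9977 between the dnChd4 replicates, and dnSnf2h replicate 1 correlated with dnChd4 replicate 1 at 0.9972. By contrast, dnSnf2h replicate 1 correlated with its own replicate 2 at 0.9937, so that replicate 2 of the dnSnf2h line stood apart from the other 3 arrays. The 2 dnChd4 replicates differed by a median of 0.0845 per gene without regard to sign and by 2-fold or more for 0 genes, whereas the 2 dnSnf2h replicates differed by 0.156 and by 2-fold or more for 15 genes. Part of this gap followed the brightness of the genes: replicate 1 minus replicate 2 of the dnSnf2h line had a median of -0.10 in the dimmest eighth of the genes, 0.09 in the fourth and -0.15 in the seventh. Genes are not independent replicates, and these correlations serve as a description.

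**Figure D1:**
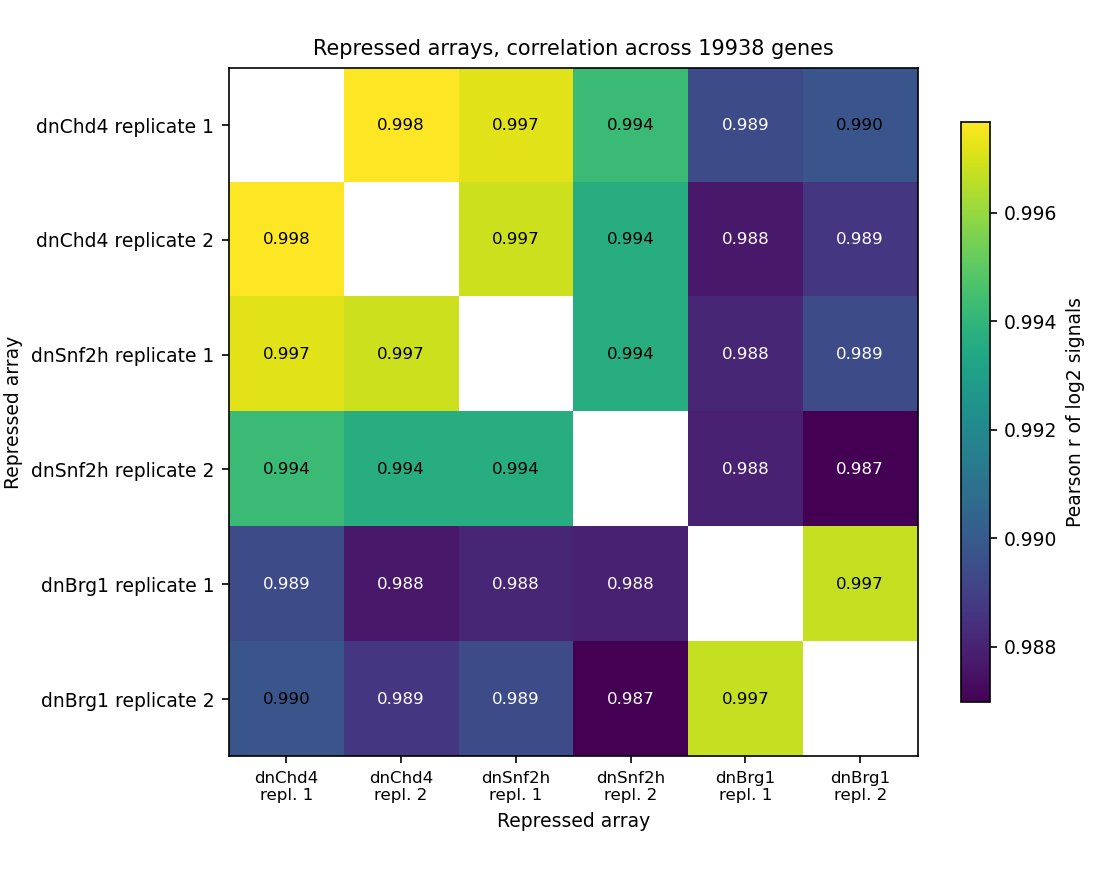
Pearson correlation of log2 signals across 19938 genes between the 6 repressed arrays of the dominant-negative lines, one array per row and column, with the colour scale giving r. The 3 upper left arrays, both dnChd4 replicates and dnSnf2h replicate 1, correlate at 0.997 to 0.998, dnSnf2h replicate 2 reaches 0.994 with each of them, and the dnBrg1 arrays sit at 0.987 to 0.990 with all 4.

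The precision of the comparison was set by 2 arrays per group and by a spread pooled over the 12 arrays. The standard error of a difference had a median of 0.109 and ran up to 0.371. For 95.8% of the genes the 95% confidence interval of the difference lay within 1.5-fold in either direction, and 27 genes had an interval that reached past 2-fold. These intervals take the spread to be the same in every group. The repressed dnSnf2h replicates differed by a median of 0.156 per gene, against 0.0728 to 0.127 in the other groups. The intervals may therefore be too narrow for this pair. The median difference without regard to sign was 0.0879 between the repressed pair. Set against the repressed dnBrg1 line, the medians were 0.120 for dnChd4 cells and 0.133 for dnSnf2h cells, with 243 and 199 genes at least 2-fold apart, while 2 genes were at least 2-fold apart between dnChd4 and dnSnf2h cells. The comparisons with dnBrg1 cells share the dnBrg1 arrays.

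With Benjamini-Hochberg adjustment over all genes, limma called 3 genes between repressed dnChd4 and repressed dnSnf2h cells, 0.0150% of those tested. Aldh1a1 and Nos2 were lower in dnChd4 cells (2 genes, 0.0100%) and Gm10548, a predicted gene named after its values were seen, was higher (1 gene, 0.00502%). An unadjusted p under 0.05 was reached by 1578 genes (7.91%), 720 of them higher in dnChd4 cells (3.61%) and 858 lower (4.30%). A mean difference of at least 1.5-fold was found for 30 genes (0.150%), 11 higher (0.0552%) and 19 lower (0.0953%) in dnChd4 cells.

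Aldh1a1, which encodes a cytosolic aldehyde dehydrogenase that makes retinoic acid from retinaldehyde, showed the largest difference of all genes tested. It had 5.70 and 5.20 in repressed dnChd4 cells, against 6.58 and 6.71 in repressed dnSnf2h cells, with the dnBrg1 line at 6.32 and 6.20. The 2 lines did not overlap, and the gap between them exceeded the gap between the dnChd4 replicates, the wider of the 2. The difference was -1.19 (SE 0.14, 95% interval -1.49 to -0.90), a level 2.29-fold lower in dnChd4 cells, with an adjusted p of 0.0076 from limma. Without dnSnf2h replicate 2 it was -1.12 with an adjusted p of 0.0764, and without dnChd4 replicate 2 it was -0.95 with an adjusted p of 0.128, so the call needs both of these arrays. On the induced arrays Aldh1a1 stood at 8.74 and 8.95 in dnChd4 cells and at 9.24 and 9.34 in dnSnf2h cells, a difference of -0.45 that did not pass the test (limma adjusted p = 0.249).

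Nos2 encodes the inducible nitric oxide synthase, a gene best known from macrophages exposed to bacterial products and interferon. It had 5.83 and 5.86 in repressed dnChd4 cells, against 6.57 and 6.50 in repressed dnSnf2h cells, and the dnBrg1 line lay with the dnChd4 line at 5.76 and 5.57. The difference was -0.69 (SE 0.10, 95% interval -0.90 to -0.47), or 1.61-fold lower in dnChd4 cells, with a limma adjusted p of 0.0472. It lost its call without dnSnf2h replicate 2 (difference -0.72, limma adjusted p = 0.157) and without dnChd4 replicate 1 (-0.67, adjusted p = 0.413) or 2 (-0.70, adjusted p = 0.632). With induction the 2 lines had like signals, 5.73 and 5.95 in dnChd4 cells and 5.69 and 5.74 in dnSnf2h cells.

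Gm10548 had 8.15 and 8.15 in repressed dnChd4 cells, against 7.54 and 7.45 in repressed dnSnf2h cells and 7.53 and 7.56 in dnBrg1 cells. Here the dnChd4 line was the one that stood out. The difference was 0.65 (SE 0.09, limma adjusted p = 0.039), which is 1.57-fold higher in dnChd4 cells, and it was 0.61 with an adjusted p of 0.20 without dnSnf2h replicate 2 and 0.65 and 0.66 with adjusted p-values of 0.379 and 0.632 without dnChd4 replicates 1 and 2. After induction dnChd4 cells had 7.41 and 7.55 and dnSnf2h cells 7.36 and 7.34.

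**Figure D2:**
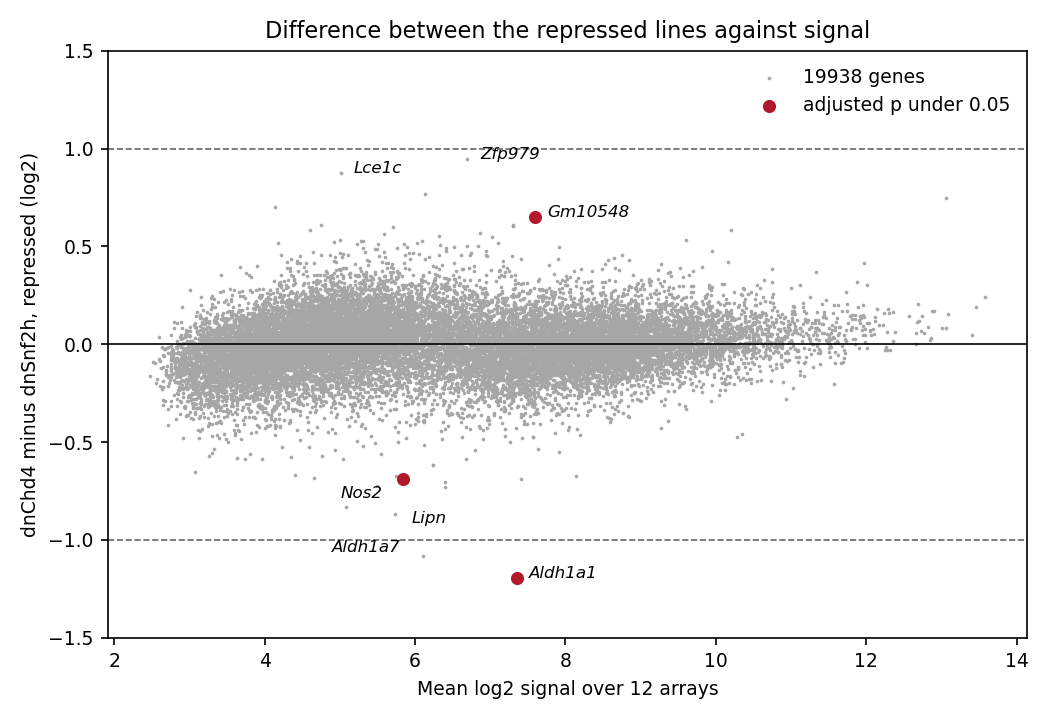
Difference in log2 signal between repressed dnChd4 and repressed dnSnf2h cells (vertical axis) against the mean log2 signal over 12 arrays (horizontal axis), 1 point per gene, with dashed lines at a 2-fold difference. The 3 genes with an adjusted p under 0.05 are in red, Aldh1a1 at -1.19, Nos2 at -0.69 and Gm10548 at 0.65, and Aldh1a7 is the only uncalled gene past a dashed line.

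How many genes were called turned on single arrays. A group left with 1 array adds nothing to the estimate of the spread. The counts with an array left out therefore do not take in that group's own spread. Without dnSnf2h replicate 2, the array that stood apart, limma called 0 genes, with 1382 at an unadjusted p under 0.05. Without dnSnf2h replicate 1, so that replicate 2 alone stood for its line, it called 500 genes, 216 higher and 284 lower in dnChd4 cells. Without dnChd4 replicate 2 it called 0 genes (908 at an unadjusted p under 0.05), and without dnChd4 replicate 1 it called 1. The calls also changed with arrays that only enter the estimate of the spread. Leaving out any 1 of the induced dnChd4 or dnBrg1 arrays left Aldh1a1 as the only call. Leaving out 1 repressed dnBrg1 array added 2310067E19Rik. Leaving out 1 induced dnSnf2h array lost Nos2 and added Aldh1a7 and Zfp979.

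Of the genes that were not called, Aldh1a7 was the only one at least 2-fold apart, and it is described after its values were seen. Aldh1a7, a close relative of Aldh1a1 on the same chromosome 19, had 4.09 and 4.18 in repressed dnChd4 cells, against 4.94 and 5.49 in repressed dnSnf2h cells, while dnBrg1 cells were higher than both lines at 7.30 and 7.16. Its difference was -1.08 (SE 0.17, limma adjusted p = 0.0605). Sequence shared between the 2 aldehyde dehydrogenase genes can let a probe read both, and its part in these values was not tested; the order of the 3 lines differed between the genes. The remaining retinaldehyde dehydrogenase genes measured, Aldh1a2 and Aldh1a3, differed by 0.05 and 0.01.

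Further genes with large differences did not pass the test, and all but Sfrp2 of those given here were picked after their values were seen. On the higher side, Zfp979, a zinc finger gene, had 6.90 and 7.10 in dnChd4 cells, against 6.09 and 6.02 in dnSnf2h cells, a difference of 0.94 (limma adjusted p = 0.206). Lce1c, a cornified envelope gene of skin, had 5.55 and 5.69 in dnChd4 cells, against 5.04 and 4.45 in dnSnf2h cells (difference 0.88, limma adjusted p = 0.126). On the lower side, Lcp1, which encodes the actin-bundling protein L-plastin, had 4.73 and 4.58 in dnChd4 cells, against 5.16 and 5.38 in dnSnf2h cells (difference -0.61, limma adjusted p = 0.126). Sfrp2, a secreted Wnt modulator, had 5.98 and 5.76 in dnChd4 cells, against 6.45 and 6.70 in dnSnf2h cells (difference -0.70, limma adjusted p = 0.207). In each of these 4 genes the lines did not overlap, which was true of 3283 genes (16.5%) with dnChd4 above and 3293 genes (16.5%) with dnChd4 below.

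**Figure D3:**
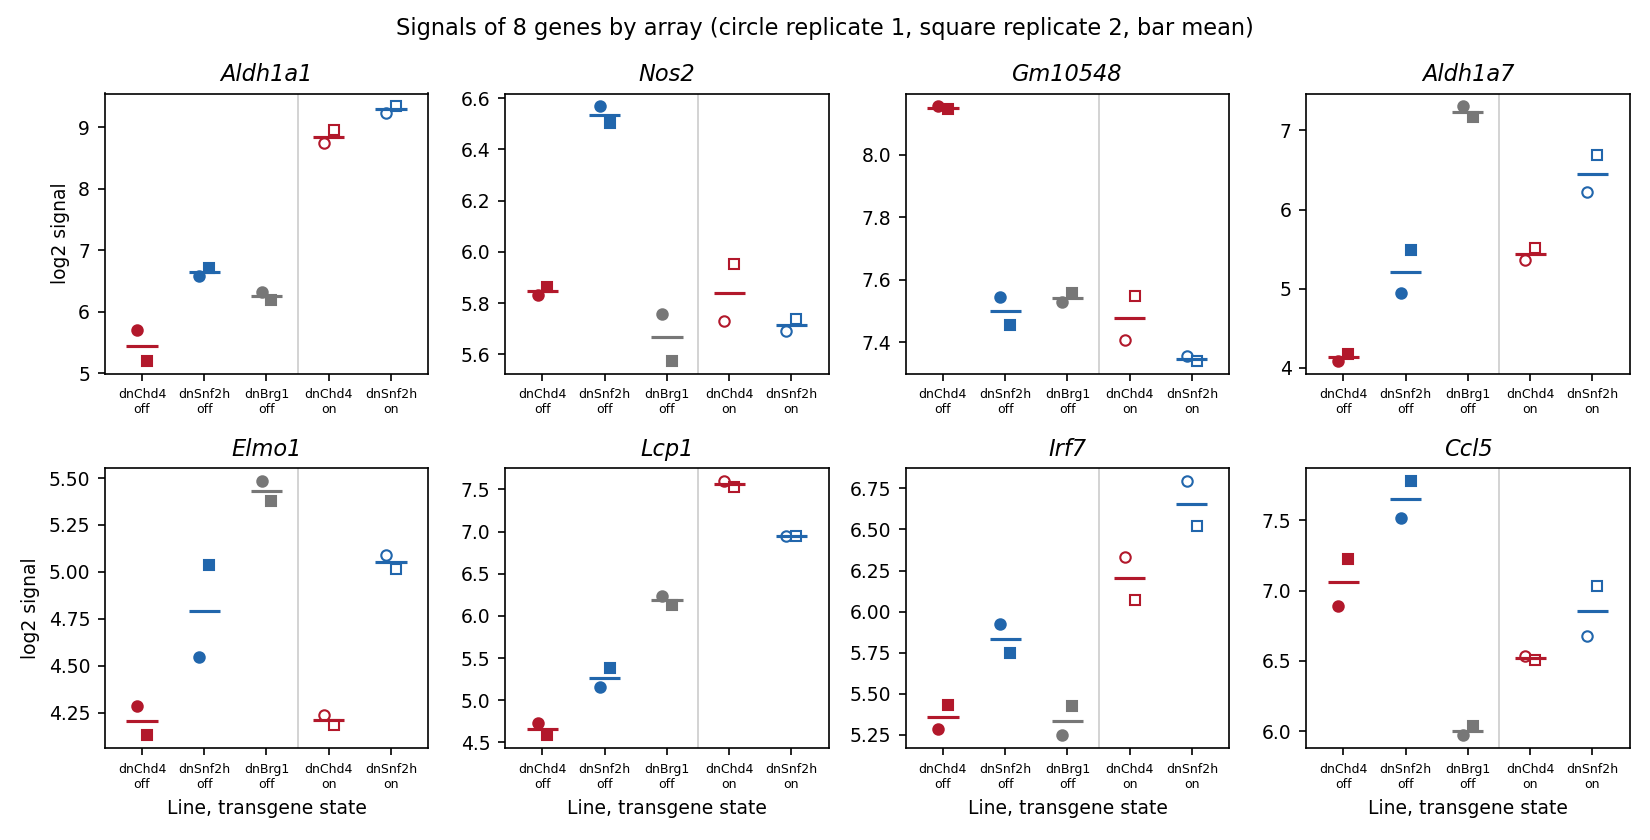
Log2 signal (vertical axis, one scale per gene) of 8 genes on the repressed (off, filled) arrays of the dnChd4, dnSnf2h and dnBrg1 lines and the induced (on, open) arrays of the dnChd4 and dnSnf2h lines, with circles for replicate 1, squares for replicate 2 and a bar for the mean of 2. In the off state the dnChd4 points lie below the dnSnf2h points in all panels but that of Gm10548, where they are above at 8.15 and 8.15.

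The gene lists give the same picture of small differences. Of 42 lists holding 973 measured genes, 38 had a median difference within 0.1 of 0, the medians ran from -0.12 to 0.15, and 1 list held a called gene, Aldh1a1 in that of glutathione and xenobiotic metabolism. In the S phase and replication list (27 genes measured) and the G2 and mitosis list (24 genes measured) the medians were 0.002 and 0.016, and no member had an unadjusted p under 0.05. The 4 lists with a median beyond 0.1 were interferon-stimulated genes, p53 targets, targets of the stress factor ATF4 and immediate early genes. Apart from the member with the largest difference in each list, the members named below were chosen after their values were seen, from those with an unadjusted p under 0.05 unless a p is given.

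**Figure D4:**
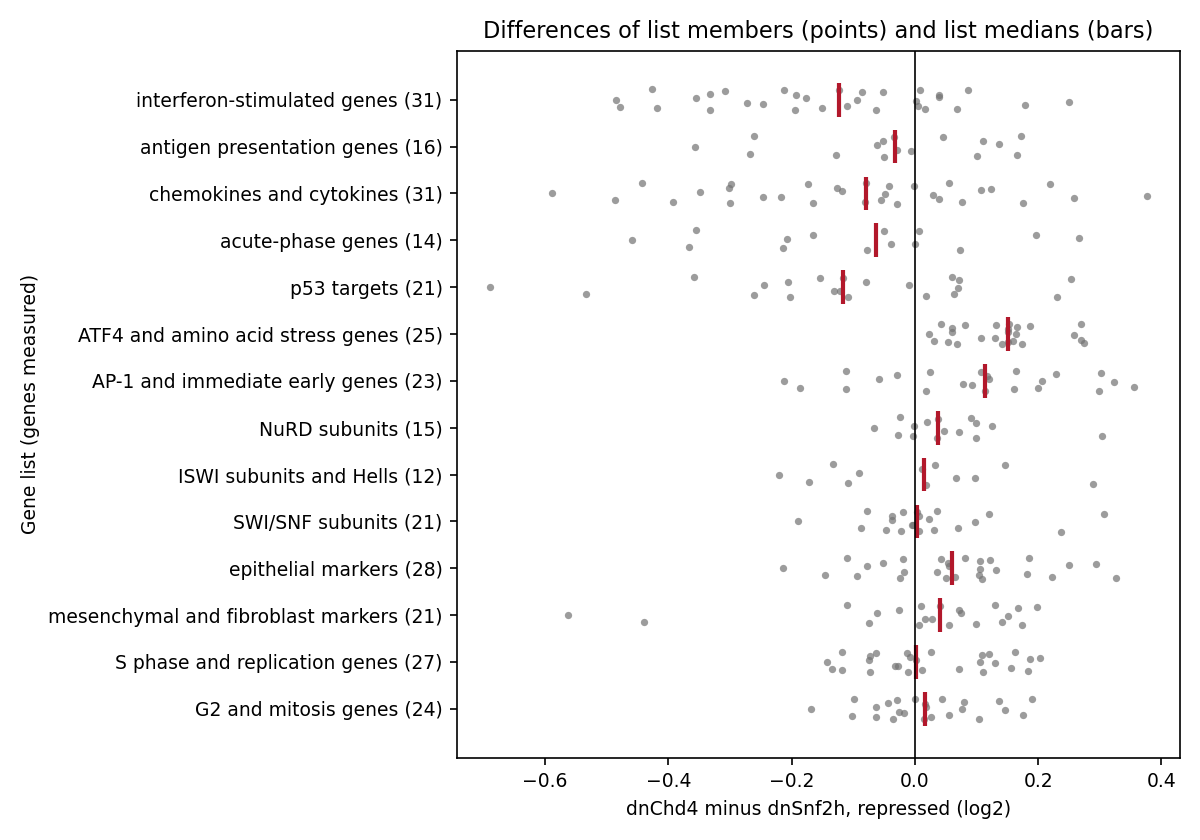
Difference in log2 signal between repressed dnChd4 and repressed dnSnf2h cells (horizontal axis) for the members of 14 gene lists (points, spread vertically only for visibility), with a red bar at each list's median and the number of measured genes in brackets. The medians of the interferon-stimulated genes at -0.12 and the p53 targets at -0.12 lie left of 0, and those of the ATF4 genes at 0.15 and the immediate early genes at 0.11 lie right of it.

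Interferon-stimulated genes encode antiviral effectors and the factors that switch them on, and many carry an interferon-stimulated response element in the promoter. Of 31 measured, 21 were lower in dnChd4 cells and 10 higher, with a median of -0.12, where 50.8% of all genes tested were lower. None was called. With dnChd4 lower, 9 (29.0%) had an unadjusted p under 0.05, and with dnChd4 higher 0, against 4.30% and 3.61% of all genes. Both dnChd4 arrays lay below both dnSnf2h arrays for 14 (45.2%), against 16.5% of all genes. The promoters of 3 of these 9 genes, and that of the interferon-induced chemokine gene Cxcl10, which is described further on, are shown because a letter pattern of that element lies in them. The pattern searched was GAAA, any 2 bases and GAAA again, on both strands, and matches are in capitals, with overlapping ones merged. It was found in 3.44% of 32851 mouse promoters of the same length and in 12 of the 22 measured interferon-stimulated genes for which a promoter was given (54.5%). Of the 7 among them with an unadjusted p under 0.05, 4 had it (57.1%). Ddx58, with 1 match, is among these 4 and is not shown. Sequences are from RefSeq, build GRCm38.p6, and run 5′ to 3′ along the gene: Ifit3 at chr19:34583279-34583578 (plus strand), Bst2 at chr8:71537423-71537722 (minus strand), Irgm1 at chr11:48871371-48871670 (minus strand) and Cxcl10 at chr5:92348840-92349139 (minus strand). Each spans 250 bases before the start of the gene and 50 after it. A match says only that these letters are present.
Ifit3: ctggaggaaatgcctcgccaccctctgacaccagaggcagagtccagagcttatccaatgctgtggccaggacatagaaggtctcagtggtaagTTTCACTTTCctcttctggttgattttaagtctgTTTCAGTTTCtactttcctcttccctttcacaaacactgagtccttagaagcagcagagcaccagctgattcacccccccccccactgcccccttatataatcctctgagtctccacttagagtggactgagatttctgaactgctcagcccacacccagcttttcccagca
Bst2: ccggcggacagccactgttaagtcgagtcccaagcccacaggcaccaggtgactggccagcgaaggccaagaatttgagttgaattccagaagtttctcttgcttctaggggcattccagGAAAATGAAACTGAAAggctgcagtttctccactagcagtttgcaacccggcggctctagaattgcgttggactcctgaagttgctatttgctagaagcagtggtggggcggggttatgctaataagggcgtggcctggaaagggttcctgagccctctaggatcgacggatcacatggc
Irgm1: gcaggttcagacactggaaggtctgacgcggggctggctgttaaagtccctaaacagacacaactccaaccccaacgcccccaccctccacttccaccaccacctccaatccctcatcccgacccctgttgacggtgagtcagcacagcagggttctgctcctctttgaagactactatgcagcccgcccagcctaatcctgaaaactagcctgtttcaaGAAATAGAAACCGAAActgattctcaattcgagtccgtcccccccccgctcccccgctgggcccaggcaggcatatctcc
Cxcl10: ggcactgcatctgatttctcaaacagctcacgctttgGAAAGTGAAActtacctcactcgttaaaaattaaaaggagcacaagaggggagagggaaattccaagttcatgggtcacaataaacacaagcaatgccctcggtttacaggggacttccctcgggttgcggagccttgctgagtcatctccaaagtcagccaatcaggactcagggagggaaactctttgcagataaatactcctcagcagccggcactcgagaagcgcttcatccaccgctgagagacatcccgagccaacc

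Irf7, the transcription factor that amplifies type I interferon responses, had 5.28 and 5.43 in repressed dnChd4 cells, against 5.92 and 5.75 in repressed dnSnf2h cells (difference -0.48, limma adjusted p = 0.434). Bst2, whose product tethers budding viruses to the cell, had 7.17 and 7.10 in dnChd4 cells, against 7.48 and 7.46 in dnSnf2h cells (difference -0.33, limma adjusted p = 0.466). Ifi27 had 8.22 and 8.09 in dnChd4 cells, against 8.43 and 8.54 in dnSnf2h cells (difference -0.33). In these genes the 2 lines did not overlap, and the difference was larger than either replicate gap.

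Ifit3, whose promoter holds 2 matches, had 3.91 and 3.88 in dnChd4 cells and 4.17 and 4.15 in dnSnf2h cells, all under the dim level. Irgm1, an interferon-induced GTPase gene, differed by -0.43, with 7.10 and 6.77 in dnChd4 cells and 7.15 and 7.58 in dnSnf2h cells. Parp14 had the largest difference of the list, -0.48, but its values overlapped, at 6.44 and 5.91 in dnChd4 cells and 6.31 and 7.01 in dnSnf2h cells. The other members under the unadjusted threshold were Xaf1 (-0.42), Ddx58, which encodes the RNA sensor RIG-I (-0.35), and Irf9, a subunit of the interferon-activated factor ISGF3 (-0.25). Without dnSnf2h replicate 2 the list's median was -0.09 with 22 of 31 genes lower, and without dnSnf2h replicate 1 it was -0.14 with 21 lower.

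On the induced arrays, which are separate arrays of the same lines, 29 of the 31 genes were lower in dnChd4 cells, with a median of -0.26. Of all 19938 genes 9914 were lower there, with a median of 0.0007. In the list 6 were called, all lower, where 0.145% of all genes were called lower and 0.637% in either direction. Among the 6, Rtp4 had 4.73 and 5.10 in induced dnChd4 cells, against 6.19 and 6.29 in induced dnSnf2h cells. With the transgenes off Rtp4 had 5.30 and 5.33 in dnChd4 cells and 5.56 and 5.46 in dnSnf2h cells, a difference of -0.19. The list was chosen with results of these data known, so the 2 states are set side by side as values.

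Other immune genes were mixed. In the list of chemokines and cytokines, 6 of 31 measured genes had an unadjusted p under 0.05 with dnChd4 lower and 1 with dnChd4 higher, against 4.30% and 3.61% of all genes. The list's median was -0.08. Of the 31 genes, 14 were dim, and the dimmest eighth of all genes had a median difference of -0.07. Without dnSnf2h replicate 1 the median was -0.04, with 14 genes higher and 17 lower in dnChd4 cells. Ccl5, a chemokine that draws T cells, had 6.89 and 7.23 in repressed dnChd4 cells, against 7.52 and 7.78 in repressed dnSnf2h cells (difference -0.59, limma adjusted p = 0.392). Cxcl10, the interferon-induced chemokine whose promoter is shown above, had 6.95 and 6.91 in dnChd4 cells, against 7.28 and 7.55 in dnSnf2h cells (difference -0.49, limma adjusted p = 0.434). Cxcl3, a neutrophil chemokine, went the other way, with 8.32 and 8.42 in dnChd4 cells and 7.93 and 8.05 in dnSnf2h cells (difference 0.38). The repressed dnBrg1 line had lower values of all 3 genes than either line, for instance 5.97 and 6.04 for Ccl5.

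In the acute-phase list 4 of 14 measured genes (28.6%) had an unadjusted p under 0.05, all with dnChd4 lower, against 4.30% of all genes. Of the 14 genes, 7 were dim. The list's median was -0.06 (-0.18 without dnSnf2h replicate 2 and -0.02 without replicate 1). Lcn2, which encodes an iron-siderophore binding protein, had 10.43 and 10.73 in dnChd4 cells, against 11.20 and 10.87 in dnSnf2h cells (difference -0.46, limma adjusted p = 0.469), and Saa3, a serum amyloid gene, differed by -0.37. Among antigen presentation genes, 3 of 16 measured (18.75%) were under the unadjusted threshold, all with dnChd4 lower, against the same 4.30%. Their median was -0.03 (-0.09 without dnSnf2h replicate 2 and 0.002 without replicate 1). Tap2 and Tap1, which encode the peptide transporter that loads MHC class I, differed by -0.36 and -0.26, with 7.79 and 7.60 for Tap2 in dnChd4 cells and 7.97 and 8.13 in dnSnf2h cells.

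Markers of macrophages and leukocytes, cells in which several of these genes are abundant, were followed for the same arrays. Over the 13 measured, the mean log2 signal was 4.86 on both dnChd4 arrays and 4.96 and 5.03 on the dnSnf2h arrays, with 8 of 13 dim on each dnChd4 array and 7 of 13 on each dnSnf2h array. Their differences had a median of -0.06, with 8 lower and 5 higher in dnChd4 cells. Lyz2 (-0.73), Lcp1 (-0.61) and Cd14 (-0.38) had an unadjusted p under 0.05, 23.1% of the list, against 4.30% of all genes with dnChd4 lower. The highest differences were those of Cd3e at 0.14 and Tyrobp at 0.13. The defining markers Ptprc, Csf1r and Adgre1 were dim on all 4 arrays, Ptprc at 4.47 and 4.48 in dnChd4 cells and 4.31 and 4.51 in dnSnf2h cells. In bulk RNA, fewer cells of a type and less RNA per cell cannot be told apart.

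Targets of p53, the DNA damage factor, had a median of -0.12, with 14 of 21 measured genes lower in dnChd4 cells. Among all genes tested, 50.8% were lower. The unadjusted threshold was passed by 4 of the 21, all lower, against 4.30% of all genes. Fas, the death receptor gene, had 6.77 and 6.60 in dnChd4 cells, against 7.25 and 7.49 in dnSnf2h cells (difference -0.69, limma adjusted p = 0.44). Sesn1, a stress-induced inhibitor of growth signalling, had 7.39 and 7.21 in dnChd4 cells, against 7.55 and 7.76 in dnSnf2h cells, and Perp and Phlda3 differed by -0.26 and -0.25. Trp53inp1, a p53-induced autophagy gene, was high on 1 array, dnSnf2h replicate 2: it had 6.32 and 6.0 in dnChd4 cells and 6.07 and 7.32 in dnSnf2h cells (unadjusted p = 0.0662). Without dnSnf2h replicate 2 the list's median turned to 0.02, with 12 genes higher and 9 lower in dnChd4 cells, and without dnSnf2h replicate 1 it was -0.26.

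ATF4 is the transcription factor that cells use under amino acid shortage, and its targets supply amino acids and one-carbon units. All 25 measured targets had a positive difference, from 0.02 to 0.27 with a median of 0.15, where 49.2% of all genes tested were higher in dnChd4 cells. None was called and 2 (8%) had an unadjusted p under 0.05, both higher, against 3.61% of all genes higher and 7.91% in either direction. Slc6a9, a glycine transporter gene, had 9.67 and 9.85 in dnChd4 cells, against 9.48 and 9.50 in dnSnf2h cells (difference 0.27, limma adjusted p = 0.569). Trib3, a pseudokinase gene, had 8.85 and 9.50 in dnChd4 cells and 8.83 and 8.98 in dnSnf2h cells (difference 0.27, unadjusted p = 0.0956), and Asns, for asparagine synthetase, had 12.38 and 12.50 in dnChd4 cells and 12.30 and 12.28 in dnSnf2h cells (difference 0.15, unadjusted p = 0.133). Here the values of dnChd4 replicate 2 were the higher of its line. Without that array the median was 0.04 and 16 of 25 genes were higher, and without dnChd4 replicate 1 it was 0.24 and 24 were higher. On the induced arrays 21 of 25 were higher in dnChd4 cells, with a median of 0.28, where 10017 of all 19938 genes were higher, with a median of 0.0007.

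Immediate early genes, which answer growth factor signals within minutes, had a median of 0.11, with 17 of 23 measured genes higher in dnChd4 cells. Over all genes tested 49.2% were higher. Under the unadjusted threshold were 4 of the 23 (17.4%), all higher, against 3.61% of all genes. These 4 were Nr4a1 (0.36), Fosl1 (0.30), Myc (0.30) and Dusp5 (0.23). Nr4a1, an orphan nuclear receptor gene, had 5.39 and 5.41 in dnChd4 cells, against 4.95 and 5.15 in dnSnf2h cells. Myc, a growth regulator, had 9.77 and 10.09 in dnChd4 cells, against 9.56 and 9.70 in dnSnf2h cells. Fos and Junb, also on the list, had differences of -0.03 and -0.19. Without dnChd4 replicate 2 the median was 0.05, and without replicate 1 it was 0.19.

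Genes of detoxification differed in both directions, with a median of -0.01. Under the unadjusted threshold were 4 of 47 measured lower in dnChd4 cells and 4 higher, against 4.30% and 3.61% of all genes. Beside Aldh1a1, the lower ones were Ces2g, a carboxylesterase gene (-0.52), and the glutathione transferase genes Gstm5 (-0.37) and Gstm2 (-0.36). The highest differences of the list, taken without regard to p, were those of Slc7a11 (0.47), Gclm (0.30) and Cyp1b1 (0.29). Gstm5 had 7.63 and 7.48 in repressed dnChd4 cells, against 7.79 and 8.05 in repressed dnSnf2h cells. With induction its order turned, to 10.79 and 10.72 in dnChd4 cells, against 9.90 and 9.85 in dnSnf2h cells, and the change between the states passed the limma test. Genes of metal handling had a median of 0.007. Under the unadjusted threshold were 2 of 23 measured (8.70%), both higher in dnChd4 cells, against 3.61% of all genes. Mt2, a metallothionein gene, had 6.24 and 6.73 in repressed dnChd4 cells, against 5.91 and 6.03 in repressed dnSnf2h cells (difference 0.51, limma adjusted p = 0.466). Mt1, also a metallothionein gene and given without regard to p, differed by -0.04. Tfrc, for the transferrin receptor, had 10.48 and 10.74 in dnChd4 cells, against 10.14 and 10.24 in dnSnf2h cells (difference 0.42, limma adjusted p = 0.454).

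Whether the line difference without induction carried over to the induced state was read from the 4 induced arrays. There limma called 127 genes (0.637%), 98 higher in dnChd4 cells (0.492%) and 29 lower (0.145%), beside 3 without induction. The differences of the 2 states had a correlation of 0.08 across all genes, and across genes above the dim level it was 0.07. Of the 1578 genes with an unadjusted p under 0.05 without induction, 190 (12.04%) were also among the 1715 such genes with induction, a list that took in 8.60% of all genes, and the 190 were 11.1% of it. By direction, 66 of the 720 higher genes (9.17%) were higher in dnChd4 cells with induction too, where 1067 of all genes were (5.35%). Likewise, 74 of the 858 lower genes (8.62%) were lower with induction too, where 648 of all genes were (3.25%). The directions were opposite for 50 genes. At least 1.5-fold in both states were 3 genes.

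Those 3 genes behaved in different ways. Aldh1a7 had 5.37 and 5.51 in induced dnChd4 cells, against 6.22 and 6.68 in induced dnSnf2h cells, so its difference of -1.01 was close to the -1.08 without induction, and it was called (limma adjusted p = 0.00937). Elmo1, whose product works with Dock proteins to activate Rac, had 4.28 and 4.13 in repressed dnChd4 cells, against 4.55 and 5.04 in repressed dnSnf2h cells, and 4.23 and 4.18 in induced dnChd4 cells, against 5.09 and 5.01 in induced dnSnf2h cells. Lcp1 turned round, with 7.60 and 7.54 in induced dnChd4 cells, against 6.95 and 6.95 in induced dnSnf2h cells.

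**Figure D5:**
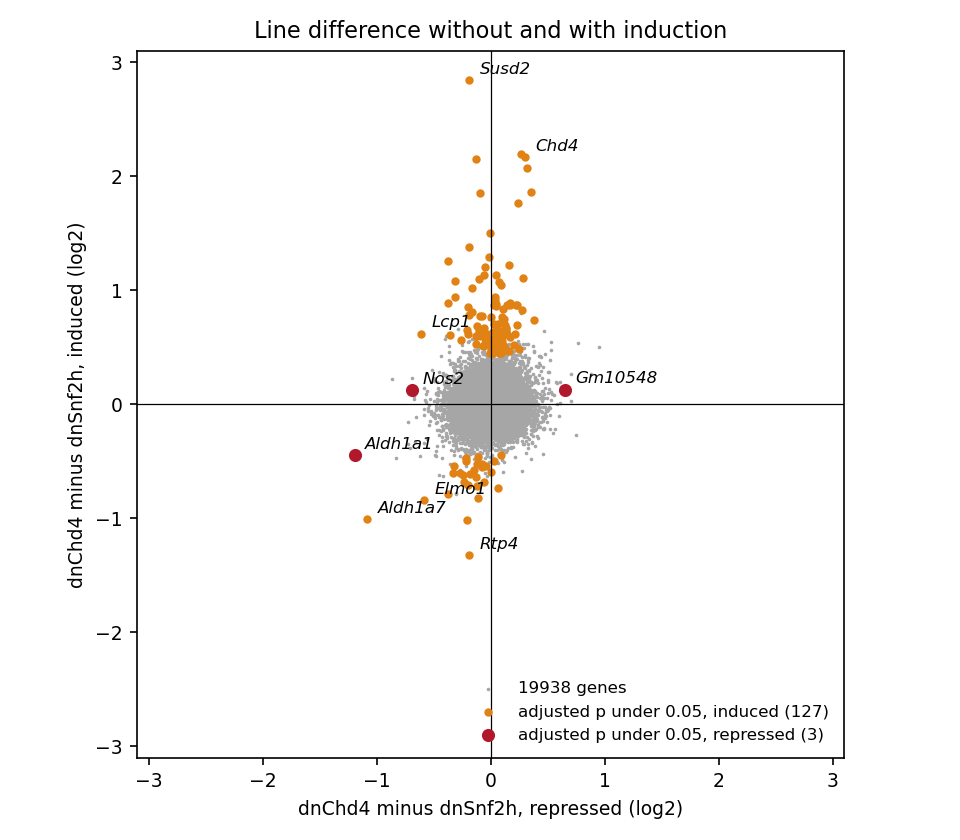
Difference between dnChd4 and dnSnf2h cells in log2 signal with induction (vertical axis) against the difference without it (horizontal axis), 1 point per gene on equal scales. The 127 genes called with induction (orange) spread along the vertical axis, up to Susd2, the 3 called without it (red) lie between -0.45 and 0.13 on that axis, and Aldh1a7 and Elmo1 are low in both.

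Tested directly, the line difference with induction minus that without passed the limma threshold for 26 genes (0.130%), 25 above 0 (0.125%) and 1 below (0.00502%). Nos2 was among them, at 0.81 (SE 0.14, adjusted p = 0.0401), and so was Lcp1, at 1.23 (SE 0.15, adjusted p = 0.00113). For Aldh1a1 it was 0.75 and did not pass (adjusted p = 0.313). The count was 174 without dnSnf2h repressed replicate 1, 15 without dnChd4 repressed replicate 2 and 17 without dnChd4 induced replicate 1. For the induced calls, the count was 35 and 46 without dnChd4 induced replicates 1 and 2, 45 without dnSnf2h induced replicate 1, and 78 without either dnBrg1 induced array.

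By position, no chromosome stood out. Over 20 chromosomes the median difference of genes above the dim level ran from -0.01 to 0.03 without induction. Dim genes were left out of these medians but kept in the windows that follow. Among windows of 15 neighbouring genes, the 3 with the largest medians were a run of Vmn1r genes on chromosome 7 (-0.20, 13 of 15 genes dim), the run from Lipf to Ifit1 on chromosome 19 (-0.19, 8 of 15 dim) and a run of olfactory receptor genes on chromosome 11 (-0.19, all 15 dim). The run on chromosome 19 holds Lipn, a lipase gene, with 5.48 and 5.34 in dnChd4 cells and 5.98 and 6.58 in dnSnf2h cells, and Fas. Without dnSnf2h replicate 2 its median was -0.03, and the others were at -0.07.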

How the data were processed

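The values analysed were log2 signals from Affymetrix Mouse Gene 1.0 ST arrays, 1 per probe set and array, deposited by the authors; that they are log2 was judged from their range. Per the submitters' processing notes the authors used Affymetrix Expression Console; its version, normalization method and build were not given in the sources used here. Arrays have no read depth, and the number of arrays limits the precision.

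Of 35557 probe sets, 21789 had 1 gene symbol in GEO's platform annotation, 1621 several and 12147 none; 21698 of the first matched RefSeq, and genes were named from them alone. For 999 genes with several probe sets, that with the highest mean over 12 arrays was kept, leaving 19938 genes. Groups came from sample titles. The 6 groups of the dnBrg1, dnChd4 and dnSnf2h lines were fitted together in limma 3.58.1 (R 4.3.3; lmFit, eBayes; 2-sided p, Benjamini-Hochberg adjustment over all genes, threshold 0.05), with no further scaling. The fit was tested on simulated data. Named by rule were called genes (the 15 highest and the 15 lowest, leaving out predicted and olfactory-type names), up to 4 called members of each list or else the member with the largest difference, the remodeler genes and Nr3c1, the 3 highest and 3 lowest called interaction genes, and the 3 windows above with 4 members each. Members and lists were chosen with earlier results of these data known. Alternatives changed the arrays fitted, replicate block, variance model, array weights, dim filter, scaling, probe sets and each array in turn; cyclic loess was chosen after seeing the data.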

Additional observations from a re-analysis of the deposited data

Results flagged for a closer look

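The test of the line difference with induction against that without was passed by 26 genes, named here by the highest and lowest values and by Nos2 and Lcp1. The difference between the states, in log2 units, was 3.03 for Susd2, 2.28 for Pld4, 1.95 for Ms4a4d, 1.93 for Tagln, 1.86 for Chd4, 1.76 for Mcam, 1.23 for Lcp1, 0.81 for Nos2, 0.73 for Man2a2 and -1.13 for Rtp4. For Susd2 the induced arrays had 7.37 and 7.72 in dnChd4 cells, against 4.50 and 4.92 in dnSnf2h cells, and the repressed arrays 4.53 and 4.73 in dnChd4 cells, against 4.72 and 4.90 in dnSnf2h cells. Nos2 and Lcp1 were lower in dnChd4 cells without induction, while the other genes named differed by 0.31 or less between the lines in that state.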

How the results depend on the processing

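Aldh1a1 was the gene shared by all settings that called any gene without induction. The count of 3 became 0 with limma on the 4 repressed arrays alone (868 genes at an unadjusted p under 0.05), on the 8 arrays of the lines (1322), on all 17 arrays (663) and with array weights (990), and 1 with quantile normalization, median centring or cyclic loess. With the replicate number as a block it was 1, but the numbers mark no shared source in the labels, and same-numbered deviations correlated at -0.39 to 0.31 between groups. Leaving out 1 array gave 0 to 500. The 127 induced calls became 40, 71 and 15 on the 4, 8 and 17 arrays and ran between 35 and 172 with 1 array left out; the 26 genes of the direct test became 8 on 17 arrays and ran between 15 and 174. Signs turned only for uncalled differences: Nr3c1 was -0.001 with quantile normalization and -0.0038 with median centring, and Smarca5 -0.0052, -0.0015 and, with cyclic loess, -0.0002. With 1 array left out, the ranges were -0.0719 to 0.1042 for Nr3c1, -0.0432 to 0.0802 for Smarca5, -0.2232 to 0.0327 for Ms4a4d, -0.1196 to 0.0728 for Chd3, -0.1665 to 0.1291 for Smarca4, -0.3794 to 0.0012 for Smarca2, -0.4976 to 0.0047 for Tex11, -0.6894 to 0.052 for Vmn1r83, -0.6162 to 0.0045 for Zfp551 and -0.6983 to 0.0277 for Zfp735. Of 1436 named differences under alternatives, 19 turned sign, 25 lost their call and 16 gained one. Fewer arrays mean fewer degrees of freedom. The counts were lower on the 4 and the 8 arrays, lower too on all 17, and higher without dnSnf2h repressed replicate 1. The causes of these changes were not tested.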

Other observations

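Small nucleolar RNA genes, whose products guide the modification of ribosomal RNA, were looked at after their values were seen. Of 46 above the dim level, 36 (78.3%) were higher in repressed dnChd4 cells, with a median difference of 0.18. An unadjusted limma p under 0.05 was reached by 11 (23.9%), all higher. Of all 13956 genes above the dim level, 53.5% were higher, with a median of 0.01. Among those 13956, 603 had an unadjusted limma p under 0.05 and were higher. Snord73b had 8.76 and 8.84 in dnChd4 cells, against 8.35 and 8.25 in dnSnf2h cells, and Snord47 had 7.70 and 7.49 in dnChd4 cells, against 6.92 and 7.13 in dnSnf2h cells, with no gene of the class called. The median was 0.19 without dnSnf2h replicate 2, 0.12 without dnChd4 replicate 2 and 0.20 on the induced arrays.

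Genes with a mean signal at least 1.5-fold higher in induced than in repressed dnBrg1 cells, a comparison that shares no array with the repressed pair, numbered 499 above the dim level. Of these 71.9% were lower in repressed dnChd4 than in repressed dnSnf2h cells, with a median difference of -0.09, where 46.5% of all 13956 genes above the dim level were lower. Against dnSnf2h replicate 1 alone the median was -0.02, and against replicate 2 alone -0.16. Over all genes above the dim level these medians were 0.04 and -0.02. Between the induced arrays of the 2 lines the 499 genes had a median of 0.016, beside 0.017 over all genes above the dim level. The 453 genes at least 1.5-fold lower in induced dnBrg1 cells had a median of 0.02.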
